A study of Mus musculus with 12 samples.

Results

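Alveolar macrophages of mice lacking both Bach1 and Bach2 were compared with those of wild-type mice. The comparison was chosen by genotype label, as the 3 arrays of the B1/B2 DKO (double knockout) genotype against the 3 WT arrays, 6 of the 12 arrays in all. The other 6 arrays, 3 of Bach1 KO and 3 of Bach2 KO, enter where they help to read the double knockout. All mice were female C57BL/6 animals of 8 to 9 weeks, with 3 independent mice per genotype and 1 array per mouse. The macrophages were collected by bronchoalveolar lavage and sorted by flow cytometry, and their amplified, Cy3-labelled RNA was hybridised to 1-colour Agilent arrays. The labels do not state how the knockout alleles were made or in which cells they act. The 3 DKO arrays were alone on their slide and in their scan, and the 3 WT arrays shared another, so genotype cannot be told apart from slide in every DKO against WT value below.

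Bach1 and Bach2 are transcriptional repressors of the CNC basic leucine zipper family. They pair with small Maf proteins and bind sites whose core is shared with AP-1, the dimers of Fos and Jun proteins. Bach1 is released from DNA by heme and is best known for repressing heme oxygenase and other heme, iron and antioxidant genes, while Bach2 is best known in B and T lymphocytes. Alveolar macrophages live in the air space, take up surfactant lipid, depend on CSF2 and PPARgamma, and renew themselves by dividing locally.

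The targeted genes were read first. Throughout, a level is the log2 signal of a gene's probe with 0 set at the 75th percentile of its array, so that levels of one gene compare between arrays, and levels of different genes do not. Bach1 was at 3.72, 4.28 and 3.77 in the WT arrays and at 2.59, 3.13 and 1.72 in the DKO arrays. All 3 DKO arrays were below all WT arrays, with a log2 difference of -1.44 ± 0.32 (SE, n = 3 per group, limma adjusted p = 0.0107 over 55650 probes). That call was lost with slide as a random block (adjusted p = 0.0502), the 2 groups alone (0.0589), quantile normalization (0.0526) and no scaling (0.117). The Bach1 signal did not drop to background on the arrays labelled DKO, since its probe was well above background on all 6 arrays. Bach2 was at -2.42, -2.18 and -8.13 in WT and at -5.46, -3.19 and -4.95 in DKO on the probe that gave a signal. Those groups overlapped, because WT mouse 3 was the lowest of all, and the log2 difference was -0.29 ± 1.25 (adjusted p = 0.913), or -2.23 without WT mouse 3. The other Bach2 probe gave no signal well above background on the 12 arrays, so neither probe checks the loss of Bach2, and the place of these probes in the deleted genes was not tested.

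Between 52.3% and 57.4% of spots were well above background on the DKO arrays and between 56.3% and 58.1% on the WT arrays, and no spot was saturated. Correlations over all genes were 0.979 to 0.988 among DKO arrays, 0.937 to 0.967 among WT arrays and 0.848 to 0.905 between a DKO and a WT array. Each DKO array correlated with Bach2 KO arrays at 0.945 to 0.975. Principal component 1 (59.1% of the variance) put the DKO arrays at 127 to 130 and the WT arrays at -172 to -84. It put the Bach2 KO arrays at 113 to 149 and the Bach1 KO arrays at -147.5 to -92.1, so it did not set DKO apart from Bach2 KO. Component 2 (9.44%) did, with DKO at 43.7 to 75.7 and Bach2 KO at -78.3 to -40.4, while WT arrays spread from -57.5 to 43.7. DKO and Bach2 KO arrays were on different slides. WT mouse 3 stood apart from the other WT arrays on the third component (131, against -25.2 and -25.9), so values that rest on it are given with and without it.

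Of 26033 genes and unnamed probes that were well above background on all 3 arrays of WT or of DKO, 6892 (26.5%) passed an adjusted p under 0.05 in limma. Of these, 2703 were higher in DKO (10.4% of those tested) and 4189 were lower (16.1%). By the fitted difference, 647 rose and 435 fell at least 16-fold. These counts include genes not well above background in WT or in DKO, whose fitted fold has no exact size. Where a signal well above background on all 6 arrays was required, 4909 of 20969 passed, 1547 higher and 3362 lower. Over all 26033 the median difference was -0.28 on the log2 scale. Other scalings moved it to -0.14 (quantile), -0.43 (array median), -0.12 (normexp with quantile) and 0.16 (no scaling). Of the called genes 39.2% were higher, against 63.8% with no scaling, so the balance of rises and falls depends on the scaling. The p-values rest on the spread between 3 mice within each of the 4 genotypes, pooled in one fit. From the WT and DKO arrays alone, 5829 passed.

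**Figure D1:**
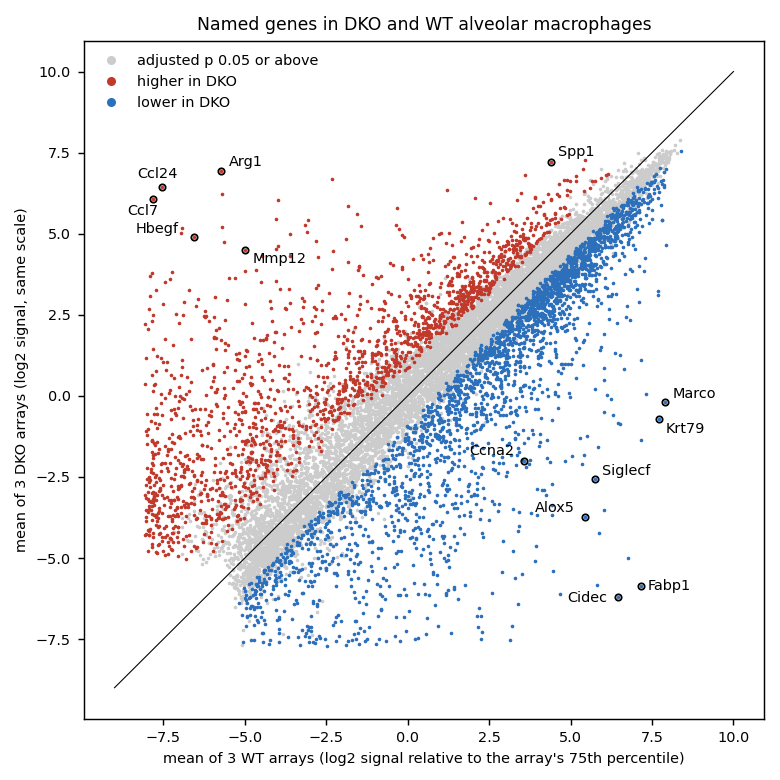
Mean level of each named gene on the 3 WT arrays (x axis) and the 3 DKO arrays (y axis), both as log2 signal relative to the array's 75th percentile; red and blue points passed an adjusted p of 0.05 and the line marks equal levels. Arg1, Ccl24 and Ccl7 lie far above the line, and Fabp1, Cidec, Marco and Krt79 lie far below it.

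The 10 largest rises, counting genes with a clear signal on 2 or more arrays of each genotype, included several secreted proteins. Csf1, the macrophage growth factor M-CSF, was at -4.53, -4.31 and -8.06 in WT and at 4.73, 4.67 and 4.84 in DKO. It was well above background on 2 of the 3 WT arrays, and every DKO array lay far above every WT array, with a difference of 10.38 ± 0.77 (adjusted p = 1.95e-06), or 9.17 without WT mouse 3. Inhba, a subunit of activin A, was at -1.12, -2.78 and -8.07 in WT and at 5.63, 5.86 and 6.65 in DKO. Also measured on 2 WT arrays, it rose by 10.04 ± 1.74 (adjusted p = 0.00135), or by 8.00 without WT mouse 3, the lowest array. Ccl2, which attracts monocytes, rose by 9.02 ± 1.20, or by 9.90 without WT mouse 2, the WT array with the highest level. Ccl8, another monocyte chemokine, was tight in both groups, at -4.77, -4.73 and -5.46 in WT and at 3.96, 3.21 and 4.37 in DKO, a rise of 8.84 ± 0.44 (adjusted p = 1.2e-07).

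The other genes of these 10 include enzymes and membrane proteins. Mmp12, the macrophage elastase, was at -5.65, -3.94 and -5.40 in WT and at 3.82, 4.81 and 4.85 in DKO (9.49 ± 0.52, adjusted p = 1.97e-07). On 2 of the 3 WT arrays it was well above background, and the gap between the groups was far wider than the spread within either. Car6, a secreted carbonic anhydrase, also rose by 9.49 ± 0.68, and Kcnn4, a calcium-activated potassium channel, rose by 8.94 ± 0.54 from a WT level measured on 2 arrays. C1qc, a chain of the complement starter C1q measured on 2 WT arrays, rose by 8.80 ± 0.96, or by 7.40 without WT mouse 3. Cox6a2, a subunit of cytochrome c oxidase typical of muscle, rose by 8.60 ± 1.01, with WT mouse 2 left out of the fit because its spot was an outlier, and did not pass with the authors' series matrix values (adjusted p = 0.054). Prnp, the prion protein, also measured on 2 WT arrays, rose by 8.58 ± 1.53, or by 6.62 without WT mouse 1.

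For 5 further genes no WT array gave a signal well above background, so their rise is given as a bound, taken against the lowest measurable signal of each WT array. Ccl24, the eosinophil chemokine eotaxin-2, reached 6.34, 6.21 and 6.74 in DKO and was at least 4580-fold higher than in WT. Ccl7, a monocyte chemokine, reached 6.04, 5.91 and 6.29 and was at least 3587-fold higher. The growth factor Hbegf was at least 1597-fold higher, the secreted alternative activation product Retnla at least 753-fold (a fitted 11.05 in log2, or 11.76 without WT mouse 2), and the collagenase Mmp13 at least 735-fold. Each of the 5 was well above background on all 3 DKO arrays. Arg1, the arginine-degrading enzyme, was well above background on 1 WT array and on all DKO arrays; its levels were -7.79, -2.70 and -6.67 in WT and 6.31, 6.87 and 7.60 in DKO. That is a difference of 12.64 ± 1.58 (adjusted p = 0.000122), or 14.15 without WT mouse 2. The levels of WT mice 1 and 3 lay below the lowest measurable signal of their arrays (-5.74 and -5.87), so neither value has an exact size.

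The 10 largest falls under the same limit of 2 measured arrays per genotype included Fabp1, Flvcr2, Alox5 and Siglecf. Fabp1, a fatty acid binding protein, went from 7.45, 6.81 and 7.20 in WT to -5.09, -5.19 and -7.33 in DKO. The difference was -13.02 ± 0.62 (adjusted p = 9.11e-08), or -12.29 without DKO mouse 3, the lowest array and the one without a signal well above background. Flvcr2, a choline transporter also described as a heme importer, went from 6.20, 5.59 and 6.31 to -3.41, -3.85 and -3.32 (-9.56 ± 0.46, adjusted p = 9.11e-08). Alox5, the enzyme that starts leukotriene synthesis, went from 5.52, 5.27 and 5.57 to -4.13, -3.92 and -3.17. Its 6 values fall into 2 tight sets, and the difference was -9.19 ± 0.31 (adjusted p = 1.21e-08). Lipf, a lipase of the gastric type, fell by 9.01 on the log2 scale and Ces2c, a carboxylesterase, by 8.56. Perp, a desmosome-associated membrane protein, fell by 10.10, or by 9.12 without DKO mouse 3. Lipf, Ces2c and Perp were well above background on 2 of the 3 DKO arrays, so those falls rest partly on values near background.

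Fpr1, the receptor for bacterial formyl peptides, went from 7.24, 7.26 and 6.98 to -1.91, -1.44 and -0.70 (-8.51 ± 0.29, adjusted p = 1.21e-08). Krt79, a keratin that resident alveolar macrophages express, differed by -8.42 ± 0.29. Siglecf, the lectin by which alveolar macrophages are usually gated, went from 5.68, 6.22 and 5.31 to -3.08, -2.27 and -2.32 (-8.29 ± 0.47, adjusted p = 2.5e-07). All 3 DKO arrays lay far below the lowest WT array for this gene. Marco, a scavenger receptor for inhaled particles, differed by -8.10 ± 0.51. Genes that were not well above background on any DKO array were Wfdc10 (at least 2341-fold lower) and the defensin-like Spag11b (at least 1054-fold). In the same class were the adaptor Grb7 (at least 430-fold), Rufy4 (at least 381-fold) and Cracd (at least 361-fold).

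**Figure D2:**
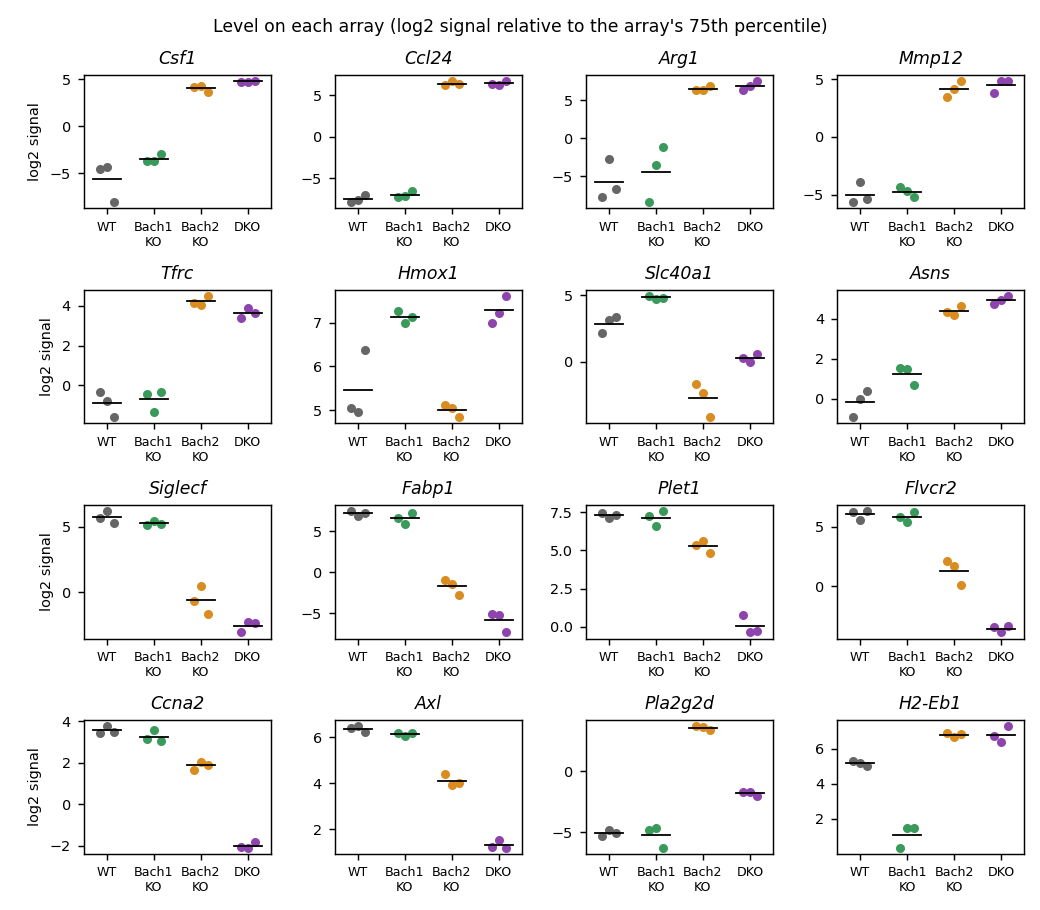
Level of 16 genes on each of the 12 arrays (y axis, log2 signal relative to the array's 75th percentile), with points for mice and a line for the mean of each genotype. DKO arrays lie near Bach2 KO arrays for Csf1, Ccl24, Arg1 and Mmp12, near Bach1 KO arrays for Hmox1, and apart from all other arrays for Plet1, Flvcr2, Ccna2 and Axl.

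Among gene lists, counts are over measured members, those that passed the filter on dim probes. A member bright in one genotype only enters through that genotype, so each count is set beside the 10.4% and 16.1% of all genes that were called higher and lower. In bulk RNA, fewer cells of a type and less RNA per cell cannot be told apart. Of 33 measured alveolar macrophage identity genes (of 34, with 30 bright on all 6 arrays), 20 fell, 2 rose and 11 did not pass, and the median difference was -2.20. Besides the genes above, Plet1 (-7.25 ± 0.34), Il18 (-6.52 ± 0.27) and the eosinophil-type ribonuclease Ear1 (-4.43 ± 0.26) fell in all DKO mice below all WT mice. Il18 codes for an interleukin of the IL-1 family. Pparg, the nuclear receptor that alveolar macrophages need, moved much less, from 5.92, 5.99 and 5.55 to 4.54, 4.94 and 5.34. Its difference was -0.88 ± 0.22 (adjusted p = 0.013), and the call was lost without DKO mouse 1 (adjusted p = 0.0546). The 11 that did not pass include Itgax (0.08), Fabp4 (-0.63), Fabp5 (-0.24), Chil3 (-0.60), Csf2ra (-0.24) and Mrc1 (-0.56). By these markers the labelled identity was thus lower in DKO than in WT for 20 genes and not called different for 11. The 2 that rose were Spp1, osteopontin (2.83 ± 0.36), and Bhlhe40, a transcriptional repressor (1.59 ± 0.31). With quantile normalization, 4 identity genes rose in place of 2.

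The list of fatty acid and lipid droplet genes shares members with the identity list. Of 36 measured, 16 fell, 3 rose and 17 did not pass (median -0.85). Cidec, which enlarges lipid droplets, went from 6.80, 6.08 and 6.47 to -6.62, -7.41 and -4.56 and was well above background on 1 DKO array. Its difference was -12.64 ± 0.66 (adjusted p = 1.48e-07), or -13.46 without DKO mouse 3. DKO mice 1 and 2 lay below the lowest measurable signal of their arrays (-5.62 and -5.39), so neither value has an exact size. Acot1, an acyl-CoA thioesterase, differed by -7.23 ± 0.32, and Dgat2, which makes triglyceride, by -3.82 ± 0.28. Lpl, lipoprotein lipase, differed by -3.52 ± 0.27. The fatty acid and oxidised lipid receptor Cd36 went the other way, from 3.20, 3.41 and 2.77 to 5.16, 5.71 and 5.51 (2.33 ± 0.22, adjusted p = 1.21e-05). When any single DKO mouse was left out, 1 member rose in place of 3, and with no scaling 6 rose. Lipid droplet coats and main desaturases did not pass, with Plin2 at a difference of -0.04 and Scd2 at -0.43. The desaturase Scd1, given below, had a larger negative difference that did not pass either.

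Of 28 measured cholesterol, LXR and apolipoprotein genes, 7 rose, 7 fell and 14 did not pass. Ch25h, which makes 25-hydroxycholesterol, rose by 2.77 ± 0.29, and Npc1, which exports cholesterol from lysosomes, rose by 1.64 ± 0.32. The cholesterol efflux pump Abca1 went from 2.46, 2.53 and 1.89 to -0.52, -0.16 and -0.51 (-2.69 ± 0.33), and Apoc1, an apolipoprotein, from 4.03, 2.15 and 3.95 to -4.04, -4.36 and -4.05. Apoc1 differed by -7.53 ± 0.47, or by -8.14 without WT mouse 2. Mylip, which degrades the LDL receptor, differed by -3.85 ± 0.36. The median of the list was -0.31 and turned to 0.13 with quantile normalization and with no scaling, and 4 members rose in place of 7 without WT mouse 2 or any DKO mouse.

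The chemokine list, with receptors, had 25 measured genes, of which 15 rose and 3 fell (median 1.88). The risers included ligands for monocytes (Ccl2, Ccl7, Ccl8) and the membrane-bound chemokine Cxcl16 (4.31). Those that fell were Cx3cl1, fractalkine (-7.37 ± 0.50), Cxcl14 (-5.88 ± 0.48, well above background on 1 DKO array) and Cxcl9 (-2.62), a ligand induced by interferon gamma. Ccl4 (0.50), Ccl6 (-0.47) and Cxcl2 (0.78) did not pass. Of 21 measured alternative activation genes, 14 rose, none fell and 7 did not pass, with a median of 3.17. Socs1, a brake on cytokine signalling, went from -0.41, -0.64 and 0.69 to 4.87, 4.94 and 4.87 (5.01 ± 0.33, adjusted p = 7.72e-07). Pdcd1lg2, the checkpoint ligand PD-L2, went from 1.34, 2.13 and 1.76 to 4.84, 4.97 and 4.92 (3.17 ± 0.23, adjusted p = 1.54e-06). DKO arrays were nearly level with each other for both genes and far from WT. The receptor Il4ra (0.55), its factor Stat6 (-0.47), Mrc1 (-0.56) and Chil3 (-0.60), all of the same list, did not pass. Where members had to be bright on all 6 arrays, 7 of the alternative activation genes rose, since several of the 14 were dim in WT. Without WT mouse 3, or with scaling to the array median, 1 of the list fell.

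Matrix and growth factor genes included many that WT macrophages barely expressed. Of 19 measured matrix remodelling genes (of 27), 9 rose and 2 fell (median 0.57), or 4 rose where brightness on all 6 arrays was required. Timp1, an inhibitor of metalloproteinases, went from -0.52, -0.62 and 0.16 to 5.53, 5.82 and 6.04 (6.12 ± 0.31, adjusted p = 1.26e-07). The sheddase Adam8 rose by 7.69 ± 0.68, and Thbs1, thrombospondin, was at least 58.9-fold higher, being dim on all WT arrays. Mmp8, a collagenase, differed by -2.92 ± 0.38. Cathepsins B, K and L on the same list differed by -0.01, 0.05 and 0.04 and did not pass. Of 16 measured secreted growth factors (of 24), 7 rose and 2 fell (median 1.34), or 1 rose and 1 fell with brightness on all 6 arrays. Pdgfa, a mitogen for fibroblasts, was well above background on 1 WT array, at -5.98, -5.18 and -5.99, against 5.06, 5.0 and 5.53 in DKO (10.91 ± 0.42, adjusted p = 2.36e-08). Vegfa, the angiogenic factor, was at least 109-fold higher. Pdgfc differed by -5.50 ± 0.44 and Tgfb2, measured on 2 DKO arrays, by -6.22 ± 1.07, or by -5.35 without DKO mouse 3, a call lost with the series matrix values (adjusted p = 0.116).

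To show where the Bach and AP-1 core lies near genes with some of the largest rises, the promoters of the 64 named genes that rose were searched. RefSeq promoters of build GRCm38.p6, from 250 bases before to 50 after the start, were matched for 45 of the 64. The core TGACTCA, on either strand, was in 3 of the 45 (6.67%), against 5.95% of the 27025 genes in the promoter table, so the share was close to that of all genes. A longer site of the NF-E2 type that contains the core was in 0 of the 45 and in 0.167% of all genes. The 3 matches lie in the upstream stretches below, written along the strand of the gene with the core in capitals.
Mmp13 (chr9:7272454-7272510, plus strand): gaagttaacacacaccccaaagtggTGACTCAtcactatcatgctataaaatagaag
Mmp12 (chr9:7347305-7347361, plus strand): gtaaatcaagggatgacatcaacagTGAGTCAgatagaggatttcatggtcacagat
Prnp (chr2:131909801-131909857, plus strand): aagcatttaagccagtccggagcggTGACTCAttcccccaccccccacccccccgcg
In Mmp12 the core is on the opposite strand and reads TGAGTCA. Its first base is 35 bases upstream of the start in Mmp13, 44 in Mmp12 and 102 in Prnp. The match is a description of letters, and binding was not measured.

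The AP-1 family, which uses the same core, changed member by member. Of 17 measured AP-1 and immediate early factors, 7 rose, 3 fell and 7 did not pass (median 0.21). Atf3, a stress-induced repressor, went from 1.45, 2.01 and 2.55 to 4.26, 4.59 and 4.91 (2.58 ± 0.36, adjusted p = 0.000272). Fosl1, the Fos family member Fra-1, went from -5.29, -5.63 and -4.32 to -2.18, -2.24 and -2.98 (2.61 ± 0.41), measured on 2 WT arrays. Jdp2, a Jun-binding repressor, rose by 1.68 ± 0.30 and Egr1, an immediate early zinc finger factor, by 2.56 ± 0.37. Fosb fell, from 2.29, 2.88 and 3.80 to 0.51, 1.05 and 1.31 (-2.03 ± 0.42). Fosl2 differed by -1.08 ± 0.25 (adjusted p = 0.00727), a call lost with quantile normalization (adjusted p = 0.0894) and with no scaling (0.0863). Fos (-0.66) and Jund (-0.49) did not pass. With quantile normalization or no scaling, 1 of the list fell in place of 3.

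Partners and relatives of the Bach proteins were measured for 11 of 12 genes, of which 3 rose, 2 fell and 6 did not pass. Maf, a large Maf factor, was well above background on 1 WT array and rose by 8.36 ± 1.77 (adjusted p = 0.00499), or by 10.24 without WT mouse 2. Its levels in WT mice 1 and 3 (-7.76 and -7.88) lay below the lowest measurable signal, so neither value has an exact size. The rise did not pass with the series matrix values (adjusted p = 0.21). Of the small Maf partners, Mafg rose by 1.41 ± 0.36 (adjusted p = 0.0131), and Mafk (0.67, adjusted p = 0.0897) and Maff (0.43, adjusted p = 0.256) did not pass. Nfe2l2, the activator Nrf2 that competes for Bach1 sites, was at 5.75, 5.82 and 5.31 in WT and at 5.0, 5.32 and 5.21 in DKO, which overlap (-0.45, adjusted p = 0.137). Besides Bach1, Nfe2, a blood cell member of the family, fell (-1.19 ± 0.36, adjusted p = 0.0316). The fall of Nfe2 did not pass when any single WT or DKO mouse other than WT mouse 3 was left out (adjusted p up to 0.109, without DKO mouse 1), nor with quantile normalization (0.0551) or no scaling (0.192).

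Of 26 measured macrophage lineage factors, 4 rose, 7 fell and 15 did not pass. Id1, an inhibitor of basic helix-loop-helix factors, went from 4.98, 4.18 and 5.30 to -1.51, -2.39 and -2.11 (-6.82 ± 0.42, adjusted p = 5.22e-07). Id3, its relative, differed by -3.56 ± 0.59, with DKO mouse 3 left out of the fit as an outlier spot. Cebpd, an inflammatory C/EBP factor, differed by -1.85 ± 0.27. Spic, the factor of iron-recycling red pulp macrophages, was at -5.71, -3.39 and -0.52 in WT and at 2.39, 1.80 and 2.56 in DKO. The WT arrays were widely spread and measured it on 2 of 3, and the rise was 5.45 ± 0.96 (adjusted p = 0.00145), or 6.80 without WT mouse 3. Ets2 rose by 1.26 ± 0.22. Spi1, the master factor PU.1 (1.02), and Cebpa (0.67) did not pass. The median of -0.28 turned to 0.16 with no scaling, where 6 rose and 3 fell, and to 0.02 with quantile normalization.

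Heme, iron and antioxidant genes, a list that holds known Bach1 targets among other genes, were mixed. Of 34 measured, 9 rose, 7 fell and 18 did not pass. Hmox1, which breaks heme open, was at 5.04, 4.95 and 6.37 in WT and at 6.99, 7.23 and 7.62 in DKO. The groups did not overlap, though WT mouse 3 came close, and the rise was 1.83 ± 0.33 (adjusted p = 0.00177). Gclm, the regulatory subunit of glutathione synthesis, went from 1.23, 1.47 and 1.33 to 2.73, 2.77 and 3.28 (1.58 ± 0.24, adjusted p = 0.000466). Tfrc, the transferrin receptor, went from -0.34, -0.80 and -1.62 to 3.41, 3.90 and 3.63 (4.57 ± 0.37, adjusted p = 3.67e-06). Slc7a11, the cystine importer, rose by 3.58 ± 0.38, and Flvcr1, a heme exporter, by 2.53 ± 0.31. In Bach2 KO against WT, Tfrc, Slc7a11 and Flvcr1 differed by 5.16, 3.84 and 2.41. In DKO against Bach2 KO they differed by -0.59, -0.26 and 0.11 and did not pass (limma adjusted p of 0.401, 0.758 and 0.882). Slc40a1, the iron exporter ferroportin, fell from 2.16, 3.13 and 3.33 to 0.30, 0.00 and 0.56 (-2.58 ± 0.54, adjusted p = 0.00443). Nqo1, a quinone reductase under Nrf2, differed by -3.39 ± 0.43, and Blvrb, a biliverdin reductase, by -1.55 ± 0.32. The ferritin chains Fth1 (-0.49) and Ftl1 (-0.58), and Txnrd1 (-0.11) and Prdx1 (-0.65), did not pass. The median was -0.28, equal to that of all genes, and turned to 0.09 with quantile normalization and 0.16 with no scaling, where 4 fell.

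Inflammatory cytokine and NF-kB genes rose in 12 of 30 measured cases and fell in 3 (median 0.53). Ier3, an NF-kB target, went from 0.95, 0.72 and 1.24 to 4.79, 4.83 and 5.36 (4.02 ± 0.33, adjusted p = 4.82e-06). Socs3, a brake on IL-6 signalling, rose by 3.19 ± 0.45. The acute phase gene Saa3 rose by 8.96 ± 1.09, or by 10.73 without WT mouse 3. It was well above background on 1 WT array, so neither value has an exact size. Traf1 rose by 4.55 ± 0.64, or by 3.90 without WT mouse 2. The cytokine Il1b fell, from 3.06, 2.77 and 2.37 to 0.88, 0.03 and 0.80 (-2.17 ± 0.43), as did the receptor Tlr2 (-1.29 ± 0.19) and Tnfaip2 (-1.43 ± 0.24). Tnf (0.35), Nos2 (-0.34) and Nfkbia (0.50) did not pass. Of 27 measured interferon-stimulated genes, 8 rose and 1 fell (median 0.22), but 5 rose without WT mouse 1, DKO mouse 2 or DKO mouse 3, and 4 without DKO mouse 1, while 2 fell without WT mouse 1 or 2. Usp18, which removes ISG15 from proteins, rose by 6.17 ± 0.63, or by 7.10 without WT mouse 3. The RNA sensor Ddx58 differed by -1.36 ± 0.26, a call lost with no scaling (adjusted p = 0.0696). Isg15 (-0.09) did not pass.

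MHC class II genes changed in both directions. The list of 18 measured genes held 8 that rose, 4 that fell and 6 past neither threshold (median 0.32). Without WT mouse 3 or DKO mouse 1, 5 rose, without WT mouse 2, 6 fell, and with no scaling 2 fell. H2-Eb1, a class II beta chain, went from 5.29, 5.16 and 5.01 to 6.71, 6.37 and 7.28 (1.63 ± 0.31, adjusted p = 0.00272). H2-Eb2 was dim in WT and at least 28.9-fold higher in DKO. H2-DMa, which loads peptide onto class II, went the other way, from 5.94, 5.69 and 5.85 to 2.54, 2.26 and 3.47 (-3.07 ± 0.31, adjusted p = 2.03e-05). H2-Oa, which opposes that loading, differed by -2.31 ± 0.42. Ciita, the master activator of class II genes, overlapped between the groups (1.20, adjusted p = 0.164).

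Of 22 measured complement and Fc receptor genes, 9 rose and 6 fell (median 0.26), or 5 rose with brightness on all 6 arrays. C1qb, a second C1q chain, went from -2.87, -2.83 and -2.22 to 2.30, 2.33 and 3.34 (5.30 ± 0.40, adjusted p = 2.08e-06). C1qa rose by 9.12 ± 0.69, or by 9.94 without WT mouse 2. It was well above background on 1 WT array, so neither value has an exact size. C5ar1, the receptor for the C5a fragment, went from 4.56, 3.90 and 4.61 to -1.83, -2.02 and -2.23 (-6.38 ± 0.32, adjusted p = 1.22e-07). Fcgr4, an activating IgG receptor, differed by -3.58 ± 0.26. Of 24 measured genes of apoptotic cell uptake and scavenging, 9 rose and 8 fell, and 5 rose without DKO mouse 1. Axl, a receptor tyrosine kinase for dying cells, went from 6.39, 6.48 and 6.22 to 1.23, 1.55 and 1.21 (-5.03 ± 0.20, adjusted p = 2.39e-08). Itgb3, an integrin chain used in such uptake, went from -4.70, -5.58 and -4.05 to 2.50, 2.06 and 2.14 (7.01 ± 0.42), measured on 2 WT arrays. Cd300e, an activating receptor, differed by -8.65 ± 0.58, or by -8.02 without DKO mouse 3. It was well above background on 1 DKO array, so neither value has an exact size. The list's median was -0.14 and turned to 0.25 with quantile normalization, and 4 fell with no scaling.

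Cell cycle genes fell nearly as a block. Of 50 measured (of 52, with 45 bright on all 6 arrays), 46 fell, none rose and 4 did not pass, and the median was -3.35. Ccnb2, a mitotic cyclin, went from 4.13, 4.02 and 4.68 to -1.96, -2.14 and -1.66 (-6.20 ± 0.29, adjusted p = 7.5e-08). Ccna2, the cyclin of S phase and mitotic entry, went from 3.43, 3.76 and 3.49 to -2.08, -2.09 and -1.82 (-5.56 ± 0.23, adjusted p = 3.47e-08). The DKO values of both cyclins lay close together and below every WT value. Cenpe, a kinetochore motor, differed by -5.45 ± 0.29. Mki67, the proliferation marker, went from 4.60, 4.17 and 5.07 to 0.86, 0.26 and -0.05 (-4.25 ± 0.29, adjusted p = 9.43e-07). The 4 that did not pass were Cdc25c (-1.42), Mcm2 (-0.68), Tyms (-0.09) and Cdt1 (-0.53). Under every scaling tried the list's median stayed at or below -2.91 and none of its members rose.

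ATF4 and unfolded protein response genes rose in 12 of 29 measured cases and none fell (median 0.99). Asns, asparagine synthetase, went from -0.93, 0.00 and 0.37 to 4.77, 4.93 and 5.16 (5.14 ± 0.35, adjusted p = 9.43e-07). Trib3, a pseudokinase induced by ATF4, rose by 4.04 ± 0.41 and Ppp1r15a, which reverses the stress block on translation, by 4.05 ± 0.32. Chaperones of the endoplasmic reticulum on the same list did not pass, with Hspa5 at -0.47, Hsp90b1 at -0.28 and Calr at -0.28. Up to 2 members fell under array-median scaling, or without WT mouse 2 or DKO mouse 3. Of 32 measured respiratory chain and ATP synthase genes, 11 fell, none rose and 21 did not pass (median -0.80). Ndufa4 went from 6.98, 6.14 and 6.52 to 4.63, 4.84 and 4.80 (-1.79 ± 0.40) and Cox5a, a subunit of cytochrome c oxidase, differed by -1.19 ± 0.27. This count was fragile: 3 fell with quantile normalization, 5 with no scaling, 4 without WT mouse 1 or DKO mouse 1, and 5 without WT mouse 3 or DKO mouse 2.

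Of 24 measured glycolysis genes, 6 rose, 4 fell and 14 did not pass, and with quantile normalization 10 rose and the median went from -0.23 to 0.32. Aldoc, an aldolase, went from 6.00, 5.56 and 6.28 to 1.29, 1.53 and 1.67 (-4.45 ± 0.25, adjusted p = 2.42e-07), while Hk3, a hexokinase, rose by 2.62 ± 0.31. Pdk1, a kinase that inhibits pyruvate dehydrogenase, differed by -2.82 ± 0.27, and Slc2a1, a glucose transporter, by 2.34 ± 0.33. Of 34 measured lysosome genes, 4 rose and 2 fell (median 0.04), near or below the shares of all genes. Atp6v1h and Atp6v1b2, proton pump subunits, rose by 2.42 ± 0.39 and 2.45 ± 0.46. With quantile normalization 16 lysosome genes rose and none fell, so the lysosome count depends on the scaling.

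**Figure D3:**
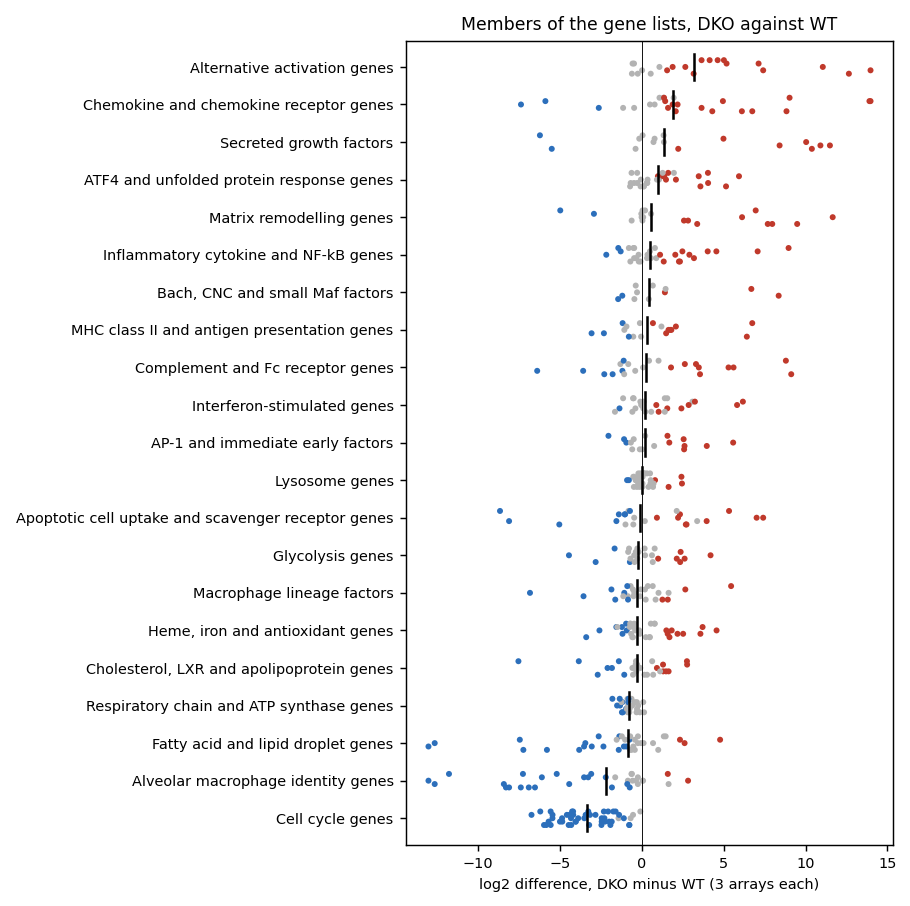
Log2 difference, DKO minus WT (x axis), of each measured member of the 21 gene lists; red and blue points passed an adjusted p of 0.05, grey points did not, and the bar is the list's median. Cell cycle genes lie almost all to the left (median -3.35), alternative activation genes mostly to the right (median 3.17), and most other lists spread to both sides.

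Markers of other cell types also moved, and their part in the results was not tested. As with the lists, a marker bright in 1 genotype only entered through that genotype. Bright on all 6 arrays were 10 of 17 monocyte, 9 of 12 dendritic, 9 of 13 T and NK, and 8 of 11 neutrophil markers. The same held for 2 of 6 B cell, 11 of 13 epithelial, 5 of 8 endothelial and fibroblast, and 4 of 5 erythroid and platelet markers. Summed linear levels are given relative to the array's 75th percentile, as the range over 3 arrays. Monocyte and interstitial macrophage markers rose in 11 of 17 measured cases and fell in none, with sums of 364 to 405 in WT and 384 to 497 in DKO. Dendritic cell markers rose in 6 of 12 and fell in 1 (sums 116 to 136 and 125 to 143). Of their defining genes, Flt3 rose by 4.30 ± 0.49 (3.68 without DKO mouse 1) and Zbtb46 did not pass (-0.38). T and NK cell markers rose in 5 of 13 and fell in 2 (sums 81.4 to 149 and 41.2 to 60.2). Their defining gene Cd3e did not pass (-0.41), and Ncr1 gave no signal well above background on the 6 arrays. The largest rise, of the interleukin receptor Il7r, was 12.12 ± 0.95 (13.27 without WT mouse 2). With 1 WT array giving a signal, neither value has an exact size. Neutrophil markers rose in 1 of 11 and fell in 3 (sums 100.1 to 143 and 78.9 to 118), and S100a8 did not pass (1.04).

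B cell markers rose in 1 of 6 (sums 0.464 to 0.799 and 0.921 to 1.20), with the receptor chain Cd79a well above background on 2 WT arrays and 1 DKO array. Of 13 eosinophil, mast cell and basophil markers on the array, 3 were measured, 1 of them bright on all 6 arrays. The others measured entered through DKO alone, so the 2 that rose say little (sums 0.196 to 0.250 and 0.426 to 0.481). Epx and Cpa3 stayed dim on all 6 arrays. Lung epithelial markers rose in 3 of 13 and fell in 3 (sums 56.2 to 78.8 and 123 to 135). Among them Epcam went from 2.68, 2.87 and 2.80 to -2.80, -3.95 and -3.94 (-6.35 ± 0.43), Pdpn rose by 3.43 ± 0.38, the surfactant gene Sftpb stayed dim on all 6 arrays, and Sftpc did not pass (-1.62). Endothelial and fibroblast markers rose in 4 of 8 (sums 19.1 to 51.0 and 51.2 to 71.4). Cdh5, the endothelial cadherin, was at least 15.1-fold higher in DKO, Col1a1 was well above background on 1 WT array only and Dcn on 1 DKO array only. Erythroid and platelet markers rose in 1 of 5 and fell in 1 (sums 6.36 to 14.2 and 28.2 to 43.0). The platelet gene Pf4 rose by 2.37, and the hemoglobin gene Hba-a1 fell (-1.85 ± 0.59, adjusted p = 0.0376, or 0.131 without WT mouse 3), with a value of -2.55 without WT mouse 1.

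The double knockout was then set directly against Bach2 KO, so that the 2 genotypes differ by label in Bach1 alone. Bach1 was at 3.81, 4.12 and 3.88 in Bach2 KO, and DKO differed by -1.45 ± 0.32 (limma adjusted p = 0.0562 over 55650 probes). In the fit over filtered genes its adjusted p was 0.035, a call lost for 5 of the 6 arrays when each was left out. The loss of Bach2 was not checked by its probes. Of the 26033 genes, 732 passed (2.81%), with 325 higher (1.25%) and 407 lower (1.56%) in DKO. The count fell to 247 without Bach2 KO mouse 1, 314 without Bach2 KO mouse 3, 248 without DKO mouse 1, 487 without DKO mouse 2 and 335 without DKO mouse 3. It was 1274 with quantile normalization. One of the Bach2 KO arrays was on a slide of its own and the other 2 shared the WT slide, so genotype and slide cannot be told apart here either. The effect of losing Bach1 differed with and without Bach2 in 120 genes (0.461%), of which 21 (0.0807%) lay above 0 and 99 (0.38%) below.

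Of 33 measured identity genes, 14 were lower in the double knockout than in Bach2 KO and none higher, and the count was 11 to 13 when one array was left out. Plet1, a surface protein of resident alveolar macrophages, was at 5.34, 5.62 and 4.83 in Bach2 KO and at 0.76, -0.36 and -0.24 in DKO. The 2 genotypes were separated by about 4 log2 units at the closest, a difference of -5.21 ± 0.34 (adjusted p = 2.11e-05). Ear1 differed by -2.40 ± 0.26, Krt79 by -2.95 ± 0.29 and Lpl by -2.37 ± 0.27. Of 50 cell cycle genes, 21 were lower and 1, the replication licensing factor Cdt1 (1.47), was higher, and 18 to 20 were lower when one array was left out. Ccna2 was at 1.67, 2.05 and 1.88 in Bach2 KO and at -2.08, -2.09 and -1.82 in DKO (-3.87 ± 0.23, adjusted p = 1.83e-05). Mki67 differed by -2.14 ± 0.29 and Top2a, a topoisomerase of dividing cells, by -2.59 ± 0.36. Axl differed by -2.78 ± 0.20 (adjusted p = 4.14e-05).

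Of 36 fatty acid genes, 7 were lower in DKO than in Bach2 KO and none higher. Scd1, the desaturase of stearate, was at 3.67, 3.60 and 3.79 in Bach2 KO and at 0.29, -0.65 and -1.18 in DKO (-4.20 ± 0.63, adjusted p = 0.00517), though DKO did not differ from WT beyond the threshold (-1.53, adjusted p = 0.0919). Among genes measured on at least 2 arrays of each genotype, the largest falls against Bach2 KO were in Ces2c (-6.06 ± 0.48), Pla2g2d, a secreted phospholipase (-5.38 ± 0.41), Plet1, Flvcr2 (-4.84 ± 0.46, or -5.45 without Bach2 KO mouse 3) and Perp (-4.66 ± 0.65, or -3.69 without DKO mouse 3). Pla2g2d was at 3.71, 3.60 and 3.42 in Bach2 KO, at -1.70, -1.70 and -2.01 in DKO and at -5.35, -4.82 and -5.06 in WT. It was thus higher in DKO than in WT (3.27 ± 0.41) and lower than in Bach2 KO, with no overlap among the 3 genotypes. The rise against WT did not pass with the series matrix values (adjusted p = 0.13).

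Heme and iron genes included 3 of 34 higher and none lower than in Bach2 KO. Hmox1 was at 5.11, 5.05 and 4.83 in Bach2 KO, below all 3 DKO arrays (2.28 ± 0.33, adjusted p = 0.00409). Gclm was at 1.22, 1.36 and 1.72 in Bach2 KO (1.49 ± 0.24, adjusted p = 0.00702). Slc40a1 was at -1.68, -2.37 and -4.21 in Bach2 KO, so that DKO lay above Bach2 KO (3.04 ± 0.54, adjusted p = 0.0131) and below WT. That call was lost without DKO mouse 1 (adjusted p = 0.0585), and the value was 2.31 without Bach2 KO mouse 3. Without DKO mouse 1 or DKO mouse 3, 2 of the list were higher in place of 3.

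Among genes higher than in Bach2 KO, Spic differed by 4.72 ± 0.96 (adjusted p = 0.0262, or 0.105 without DKO mouse 1). Cdk5r2, an activator of CDK5, differed by 4.59 ± 0.79 (adjusted p = 0.0109), or by 3.57 without DKO mouse 3, and the call was lost without Bach2 KO mouse 3 (adjusted p = 0.0525). Prg4, lubricin, was at -5.30, -4.49 and -6.07 in Bach2 KO and at -1.67, -1.82 and -1.31 in DKO (3.69 ± 0.78, adjusted p = 0.032), a call lost without Bach2 KO mouse 3 (adjusted p = 0.122). Its DKO values overlapped WT (-0.13, adjusted p = 0.912). Of 25 chemokine genes 1 was higher (Ccl8) and 1 lower (Cxcl3), of 21 alternative activation genes none passed, and of 16 growth factors 1 was lower (Pdgfc). Of all genes 2.81% were called in this comparison, so counts this small say little about these lists. With normexp, 1 alternative activation gene was higher and 3 were lower. The Ccl8 call was lost without Bach2 KO mouse 1 or 3 or DKO mouse 1 or 3, and the Pdgfc call without Bach2 KO mouse 3 or DKO mouse 1. For single members the values were 0.71 (Csf1), 0.04 (Ccl24), 0.38 (Arg1) and 0.32 (Mmp12), none past the threshold (adjusted p of 0.657, 0.963, 0.923 and 0.785), which does not show that these genes were equal.

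**Figure D4:**
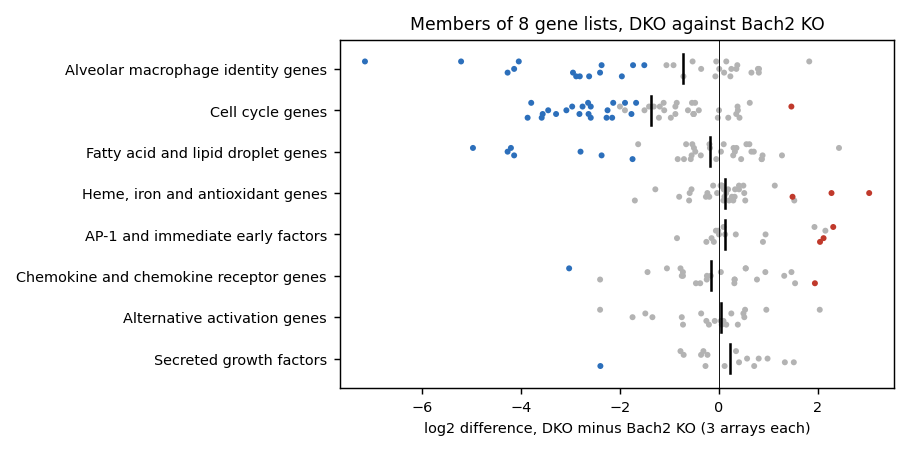
Log2 difference, DKO minus Bach2 KO (x axis), of each measured member of 8 gene lists; red and blue points passed an adjusted p of 0.05, grey points did not, and the bar is the list's median. Identity and cell cycle genes hold 14 of 33 and 21 of 50 lower members, and alternative activation genes hold none that passed.

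Against Bach1 KO, 6493 genes passed (24.9%), 2713 higher (10.4%) and 3780 lower (14.5%) in DKO. The count was 4414 to 6286 when one array was left out. All 3 Bach1 KO arrays were on the WT slide, so genotype and slide cannot be told apart in this comparison either. The largest rises among genes measured in both genotypes included Mmp12 (9.22 ± 0.52), Car6 (9.28 ± 0.68, or 10.29 without Bach1 KO mouse 1) and F13a1, a transglutaminase (9.62 ± 0.56). The largest falls included Lipf (-9.62 ± 0.29), Flvcr2 (-9.33 ± 0.46) and Alox5 (-8.92 ± 0.31). Alox5 was at 5.50, 4.79 and 5.26 in Bach1 KO, close to its WT levels and far above the DKO arrays. Of 50 cell cycle genes, 44 were lower and none higher, and of 33 identity genes 19 were lower and 2 higher.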

How the data were processed

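The authors deposited, per the file headers, Agilent Feature Extraction 10.7.3.1 output for each array (the submitters' processing notes name version 9.1), with background-subtracted processed signals as an intensity per spot. The members and gene lists were chosen with earlier results of these data known. Per array, log2 of the processed signal minus the 75th percentile of non-control spots was taken, outlier spots were dropped, and replicate spots of a probe were averaged. The sources used here give no litter or day, so p-values measure the spread between these mice. Probes well above background on all 3 arrays of WT or of DKO were kept, and the brightest probe stood for each gene; 26413 of 55681 probes were named through RefSeq accessions, and 34 of 963 called genes with several probes had another probe called the other way, none of them among the genes chosen by rule. All 12 arrays entered one limma 3.58.1 fit in R 4.3.3 (a mean per genotype, eBayes with a trend, Benjamini-Hochberg adjustment, threshold 0.05, 8 residual degrees of freedom). The fit was tested on simulated data with independent noise and no slide or replicate effect, so that test does not bear on such effects. Lists were described by counts and medians, with no test.

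Genes were chosen by rule: both targets, the 10 largest non-overlapping changes per direction with a signal on at least 2 arrays of each genotype, the 5 largest bounds per direction, per list up to 4 members with the smallest adjusted p and 2 of the rarer direction, and the 5 largest per direction against each single knockout. Other members were chosen after their values were seen, and some results are not reported here. Same-numbered WT and DKO arrays had residual correlations of 0.01, 0.19 and 0.01, so the numbers were not used to pair these mice. On principal component 2, WT arrays 1 to 3 lay at 1.64, -57.5 and 43.7. Bach1 KO arrays 1 to 3 lay in the same order, at -9.25, -52.96 and 46.85. Whether the numbers pair mice of these 2 genotypes was not tested. The authors' deposited series matrix, 20850 probes of log2 values centred per gene (correlation with centred scanner values 0.999 or more, column medians -0.25 to 0.25), served as an alternative. Other scalings, filters, probe rules, fits and left-out arrays were tried.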

Additional observations from a re-analysis of the deposited data

Results flagged for a closer look

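For 16 of the genes chosen by rule, the effect of losing Bach1 differed between mice without and with Bach2, by limma's test of that difference (DKO minus Bach2 KO, minus Bach1 KO minus WT, in log2, adjusted over all genes). The contrast was added after the data were seen, and the slide of the DKO arrays falls wholly within it.

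The differences below 0 were -8.25 for Cracd (adjusted p = 0.000148), a fitted value of no exact size because no DKO array gave a signal well above background, -5.70 for Ces2c (0.00389) and -5.20 for Pla2g2d (0.00292). The WT levels of Pla2g2d lay near the lowest measurable signal of their arrays, and 2 Bach1 KO arrays gave a signal well above background. A fall of Pla2g2d on losing Bach1 with Bach2 present could hardly be seen there, so its value has no exact size either. Plet1 was at -5.05 (0.00124) and Flvcr2 at -4.62 (0.0129), or -5.23 without Bach2 KO mouse 3. The cyclins Ccna2 and Ccnb2 were at -3.56 (0.00117) and -3.52 (0.00389), Alox5 at -3.28 (0.0099), Lipf at -3.15 (0.00748) and Axl at -2.56 (0.00292). H2-Eb1 was the gene above 0, at 4.05 (0.00292). Its log2 difference was -4.04 for Bach1 KO against WT (0.000299) and 0.002 for DKO against Bach2 KO (0.998), so the value comes from Bach1 KO against WT. These 11 calls held when any single array was left out. The other 5 did not: Cenpe was at -2.93 (0.0129, or 0.0506 without Bach1 KO mouse 1) and Fpr1 at -2.88 (0.0141, or 0.0584 without Bach2 KO mouse 1). Without Bach2 KO mouse 1, Krt79 (-2.72, 0.0168) came to 0.061, Aldoc (-1.92, 0.0432) to 0.136 and Fcgr4 (-1.95, 0.0443) to 0.141.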

How the results depend on the processing

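Counts of called genes for DKO against WT stayed within 1.5 times of 6892 in the alternatives run (4909 to 9609, and 4685 to 8030 with an array left out), except for a stricter adjusted p of 0.01, which gave 3726. DKO against Bach2 KO (732) depended on the settings: it gave 212 at 0.01, 1274 with quantile normalization, 476 with no scaling, 1470 with normexp on median signals, 1398 with the series matrix, 3465 with array weights and 1798 from the 2 groups alone, and 247 to 500 with an array left out. DKO against Bach1 KO gave 3482 at 0.01 and 4414 to 6286 with an array left out. The difference of effects (120), chosen after seeing the data, gave 23 at 0.01, 203 with normexp, 37 with the series matrix and 420 with array weights, and 30 to 184 with an array left out; it was not run on 2 groups alone. The fall of Bach1 did not pass with quantile normalization (-1.20, adjusted p = 0.0526), no scaling (-1.0, 0.117), the 2 groups alone (-1.44, 0.0589) or slide as a random block (-1.44, 0.0502), and ran from -1.77 to -1.06 with an array left out. The Bach2 value, not called, turned to 0.15 with no scaling and ran from -2.23 to 0.74 with an array left out. Prg4 against WT, not called, turned to 0.31 with no scaling and ran from -0.47 to 0.36. List members called (284) ranged from 230 to 347. Of 125 genes chosen by rule, 112 kept direction and side of the threshold in every setting that gave them a value; the filter for brightness on all 6 arrays gave one for 88 genes. The cause of these changes was not tested. Replicate number was not a term in the main fit. A fit with the replicate block gave 6809, 651, 6414 and 83 calls for the 4 contrasts, Bach1 at -1.44 (0.0079) and 287 list members. Signal over background limits genes dim in one genotype, whose folds are bounds.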
